A study of Mus musculus with 4 samples.

Results

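The genes described here are 8 components, receptors and regulators of the complement system, C1qa, C1qb, C1qc, C3, C4b, C3ar1, C5ar1 and Serping1. They were found by their symbols among the 29300 genes of the deposited table, and all 8 were present, each in a single row. Hippocampal RNA came from male C57BL/6 mice aged 7 to 8 months, 2 per group, and was taken on day 1 after the operation. Control mice were anesthetized with 2.1% isoflurane and received tramadol at 30 mg/kg, without a fracture. PND mice, the model of perioperative neurocognitive disorder, received the same anesthesia and analgesia and in addition an open tibial shaft fracture fixed by an intramedullary nail. The groups therefore differ by the fracture and not by the anesthetic, the cognition of the sequenced mice themselves was not analysed here, and p-values rest on 2 mice per group. Whole hippocampal tissue was sequenced, so that fewer cells of a type and less RNA per cell cannot be told apart.

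Complement is a cascade of plasma and tissue proteins that tags surfaces for uptake or lysis. In the classical pathway the recognition protein C1q, built from A, B and C chains, binds its target and activates the proteases C1r and C1s, which cleave C4 and C2, and these in turn cleave C3, the point where all pathways meet. Fragments of C3 and C5 signal through the receptors C3aR and C5aR1, and C1 inhibitor, the product of Serping1, blocks C1r and C1s. In the brain C1q is made mainly by microglia, and C1q and C3 are known for marking synapses that microglia then remove, which is why the family is of interest in disorders of memory.

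Total counts ran from 15763432 to 18573386 per mouse. The 8 hippocampal markers (such as Prox1 and Wfs1) summed to between 1010 and 1158 CPM (counts scaled to a common library size by the TMM method), with none at 0. The libraries differed in tissue carried along with the hippocampus. The 10 choroid plexus markers summed to 136 and 5513 CPM in the controls and to 2081 and 3517 CPM in the PND mice, and the part of this spread in the results below was not tested. The share of counts on mitochondrially encoded transcripts other than rRNA was 2.53% to 2.82% for controls and 4.45% to 4.49% for PND mice.

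All 8 genes passed the filter on low counts, and none of them passed the edgeR quasi-likelihood test of PND against control mice at an adjusted p-value of 0.05 (Benjamini-Hochberg, over 17144 genes). In the same test 26.0% of all genes passed, and 9.01% were DEGs, which also passed 1.5-fold upward or 0.67-fold downward. None of the 8 was a DEG. Without adjustment, C1qb and Serping1 had a p-value under 0.05, that is 2 of 8 genes, against 39.4% of all genes tested. DESeq2 and limma-voom also passed 0 of the 8 genes after adjustment. Without adjustment they passed 0 and 1, against 30.3% and 39.2% of all genes tested. The median log2 fold change of the 8 genes was -0.04, beside 0.01 over all genes tested. In 3 of the 8 genes the groups did not overlap, which held for 65.5% of all genes tested. PND mice were higher in Serping1 and C3ar1 (33.2% of all genes tested) and lower in C1qb (32.2%). A missed threshold does not show that the levels were alike, and the 95% interval of each fold change is therefore given with its gene.

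**Figure D1:**
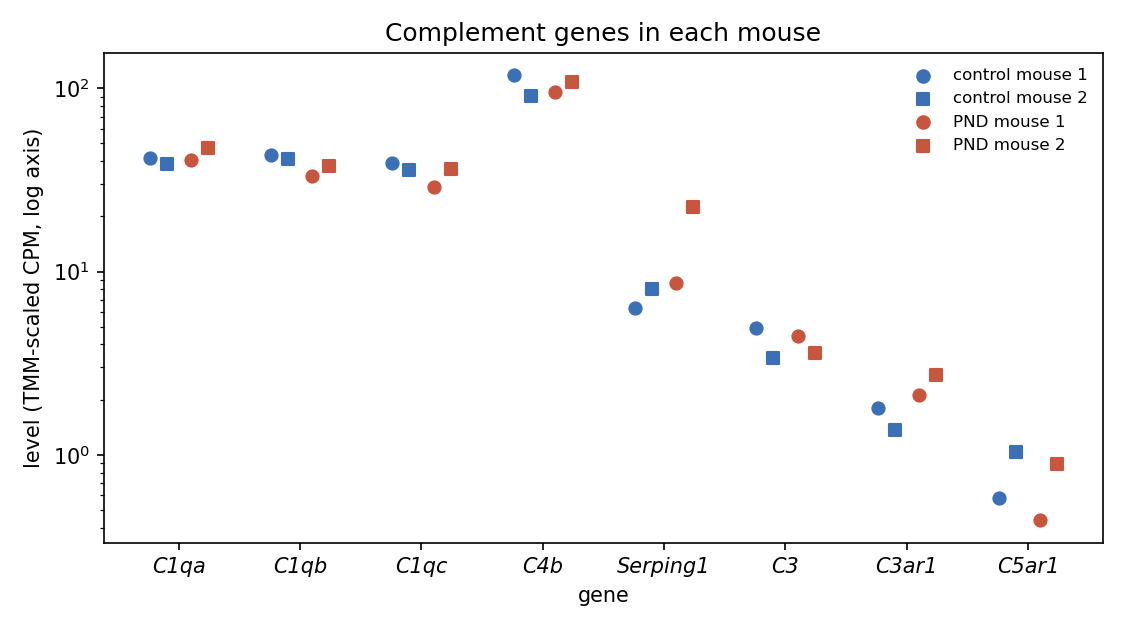
Level of each complement gene in each of the 4 mice, in TMM-scaled CPM on a log axis, with control mice in blue, PND mice in red, circles for mouse 1 and squares for mouse 2. The points of a gene lie close together for C1qa, C1qb, C1qc and C4b, while Serping1 in PND mouse 2 lies at 22.5 CPM, apart from the other 3 mice.

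Per length of transcript, the 3 chains of C1q were the most abundant of these transcripts in every mouse, followed by C4b and Serping1. Their mean levels over the 4 mice were 40.4 CPM per kb for C1qa, 35.7 for C1qb and 29.2 for C1qc. C4b, the product of which is cleaved by C1s, reached 19.2 CPM per kb, and Serping1 reached 6.43. C3 was at 0.798, C3ar1 at 0.466 and C5ar1 at 0.290 CPM per kb. Neighbours in this order were not always apart. C1qa and C1qb were level in control mouse 1 (both 39.8 CPM per kb) and C1qb was the higher of them in control mouse 2, and the order of C3ar1 and C5ar1 was turned in control mouse 2, with 0.318 and 0.409 CPM per kb.

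The genes of the C1q chains lie next to each other on the minus strand of mm10 chromosome 4, C1qb at chr4:136880129-136886187, C1qc at chr4:136889804-136893065 and C1qa at chr4:136895917-136898803. Their exons overlap no other annotated gene, and none of their 75 nt windows occurs in another gene. C1qa had 41.4 and 38.6 CPM in the controls and 40.8 and 47.3 CPM in the PND mice. The groups overlapped, and the fold change was 1.10 (95% interval 0.932 to 1.30, adjusted p = 0.35 by the edgeR test). With the length and GC trends of each library removed its log2 fold change went from 0.14 to 0.42 (unadjusted 95% interval 0.16 to 0.68, adjusted p = 0.091, edgeR). C1qb had 43.3 and 41.3 CPM in the controls and 33.1 and 37.6 CPM in the PND mice. Both PND mice were below both control mice, with a fold change of 0.836 (0.713 to 0.981, adjusted p = 0.095 by the same edgeR test). With the length and GC trends removed its log2 fold change went from -0.26 to -0.026 (adjusted p = 0.91, edgeR). C1qc had 39.0 and 35.8 CPM in the controls and 29.1 and 36.4 CPM in the PND mice. These groups overlapped, with a fold change of 0.877 (0.711 to 1.08, adjusted p = 0.31 by the same edgeR test). With the trends removed its log2 fold change turned from -0.19 to 0.051 (adjusted p = 0.86, edgeR).

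The balance between the chains is independent of how libraries are scaled, because each mouse serves as its own reference. Of the counts on C1qa and C1qb together, C1qa held 48.9% (95% Wilson interval 46.3 to 51.4) and 48.3% (45.7 to 50.9) in the control mice. In the PND mice it held 55.2% (52.4 to 58.0) and 55.7% (53.1 to 58.2). The intervals of the PND mice lay above those of the control mice. They cover counting error only and not the spread between mice. The C1qa share of C1qa and C1qc was 51.5% and 51.9% in the controls and 58.4% and 56.5% in the PND mice. Here the values of the groups were apart, but the interval of PND mouse 2 (53.9 to 59.0) overlapped those of the controls (48.8 to 54.1 and 49.2 to 54.5). The share of C1qc in C1qc and C1qb, by contrast, was 47.4%, 46.4%, 46.8% and 49.2% in control mice 1 and 2 and PND mice 1 and 2, and the groups overlapped. The log2 fold change of C1qa exceeded that of C1qb by 0.40, and by 0.44 after removal of the length and GC trends of each library. The longest transcripts of C1qa and C1qb are 1040 and 1088 nt long with GC contents of 59.5% and 57.4%. With 2 mice per group an exact permutation test of such a share cannot go below p = 0.33 (two-sided). No other test of the shares over mice was run. The rate at which shares of other pairs of genes part the groups was not computed. For single genes, the groups did not overlap in 65.5% of all genes tested.

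**Figure D2:**
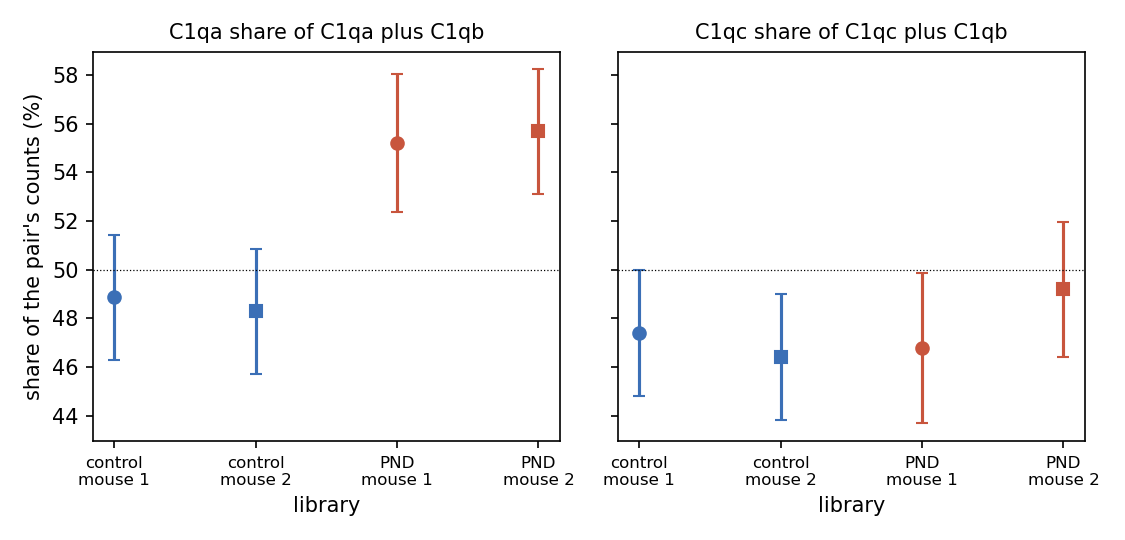
Share, in percent, of one C1q chain in the counts of a pair of chains, C1qa with C1qb on the left and C1qc with C1qb on the right, for each mouse with its 95% Wilson interval (counting error only). The C1qa share lies at 48.3% and 48.9% in the controls and at 55.2% and 55.7% in the PND mice, whereas the C1qc share stays between 46.4% and 49.2% in all 4 mice.

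The level of C1q was also set beside that of other microglial transcripts. The 18 microglial markers, among them Tmem119, Cx3cr1 and Csf1r, summed to 524 and 505 CPM in the controls and to 512 and 516 CPM in the PND mice. The 3 chains summed to 124 and 116 CPM in the controls and 103 and 121 CPM in the PND mice. On the log2 scale the ratio of both sums was -2.08 and -2.13 in the controls and -2.31 and -2.09 in the PND mice. The group means differed by -0.09, less than the SD between replicates of 0.11. With the mean of log2 CPM over each list in place of the sums, the difference was -0.15 and the SD was 0.14. Without PND mouse 1 the difference of the sums was 0.02, and without PND mouse 2 it was -0.21. Of the 18 markers 1 passed the test as higher and 1 as lower, beside 13.1% and 12.8% of all genes tested. P2ry12, a purinergic receptor of resting microglia, passed upward with a fold change of 1.79, and Selplg downward with 0.768 (adjusted p = 0.0046 and 0.024 by the edgeR test). Neither was read with the length and GC trends removed, and the P2ry12 transcript has a GC content of 38.6%.

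The promoters of 2 of the genes are shown, that of C1qb, the chain with the lowest p-value, and that of C3, an acute-phase gene. Each is the 250 bases before the start site, taken from RefSeq on GRCm38.p6, the same assembly as mm10, and written 5′ to 3′ on the minus strand of the chromosome (C1qb chr4:136886201-136886450, C3 chr17:57228137-57228386). Capitals mark a match to a searched motif, namely GAGGAA (the core bound by PU.1, the factor that defines microglia and macrophages) in C1qb and TTGCGNAA (C/EBP) in C3.
C1qb: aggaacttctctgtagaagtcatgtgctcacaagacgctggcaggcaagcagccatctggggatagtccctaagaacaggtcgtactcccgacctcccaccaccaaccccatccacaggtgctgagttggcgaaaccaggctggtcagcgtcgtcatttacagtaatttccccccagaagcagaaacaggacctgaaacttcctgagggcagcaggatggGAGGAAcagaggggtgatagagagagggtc
C3: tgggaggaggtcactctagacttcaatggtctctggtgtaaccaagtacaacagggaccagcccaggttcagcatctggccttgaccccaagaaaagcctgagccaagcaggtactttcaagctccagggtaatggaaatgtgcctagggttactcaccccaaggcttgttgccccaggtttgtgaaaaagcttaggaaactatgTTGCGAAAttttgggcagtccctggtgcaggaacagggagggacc
The match in C1qb lies 30 to 25 bases before the start site and that in C3 lies 45 to 38 bases before it. GAGGAA occurs on either strand in 23.3% of all 32851 promoters of this length and TTGCGNAA in 0.67%. The motif TTCNNNGAA (GAS, 7.02% of promoters), the NF-kB motif (1.21%) and the ISRE motif (2.98%) were searched as well on both strands, and their letters are not in these windows. No searched match overlapped another. Promoters of 5 of the 8 genes were in the RefSeq table, those of C1qb, C1qc, C3, C3ar1 and C5ar1. In C1qc the same search found GAGGAA on the other strand, 193 to 188 bases before the start site. No searched motif matched in C3ar1 or C5ar1. A match is a run of letters and not a site of binding.

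C4b and C3 encode the thioester proteins that attach to the tagged surface. C4b (chr17:34728380-34743882, minus strand) had 117.8 and 91.3 CPM in the controls and 95.2 and 108.1 CPM in the PND mice. The control mice lay on either side of the PND mice, and the fold change was 0.973 (0.784 to 1.21, adjusted p = 0.85 by the edgeR test). Of the 75 nt windows of C4b, 22.7% also occur in its neighbour C4a, so that reads there could have been split or lost in counting. C4a itself had 73 and 88 counts in the controls and 61 and 72 in the PND mice, against 1518 to 2029 counts for C4b. C3 (chr17:57203970-57228136, minus strand) was low in all mice, with 85 and 62 counts in the controls and 71 and 61 in the PND mice. In CPM these were 4.93 and 3.39 against 4.45 and 3.61, and the fold change was 0.970. Its interval of 0.616 to 1.53 leaves room for a 1.5-fold difference in either direction (adjusted p = 0.93 by the same edgeR test).

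The receptors were the least abundant of the 8 transcripts. C3ar1 (chr6:122847138-122856161, minus strand), the receptor for the C3a fragment on microglia, had 1.80 and 1.37 CPM in the controls and 2.13 and 2.73 CPM in the PND mice. Both PND mice were above both control mice, with a fold change of 1.54 on 25 to 46 counts per mouse (0.912 to 2.60, adjusted p = 0.19 by the edgeR test). The GC content of its transcript, 43.0%, was the lowest of the 8, and with the trends of length and GC content removed its log2 fold change went from 0.62 to 0.27. C5ar1 (chr7:16246743-16259540, minus strand), the receptor for C5a, had 10 and 19 counts in the controls and 7 and 15 in the PND mice. These groups overlapped, and at this depth a difference would have been detectable only if large (fold change 0.822, 0.344 to 1.97, adjusted p = 0.73 by the same edgeR test). Exons of both receptors overlap no other annotated gene.

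**Figure D3:**
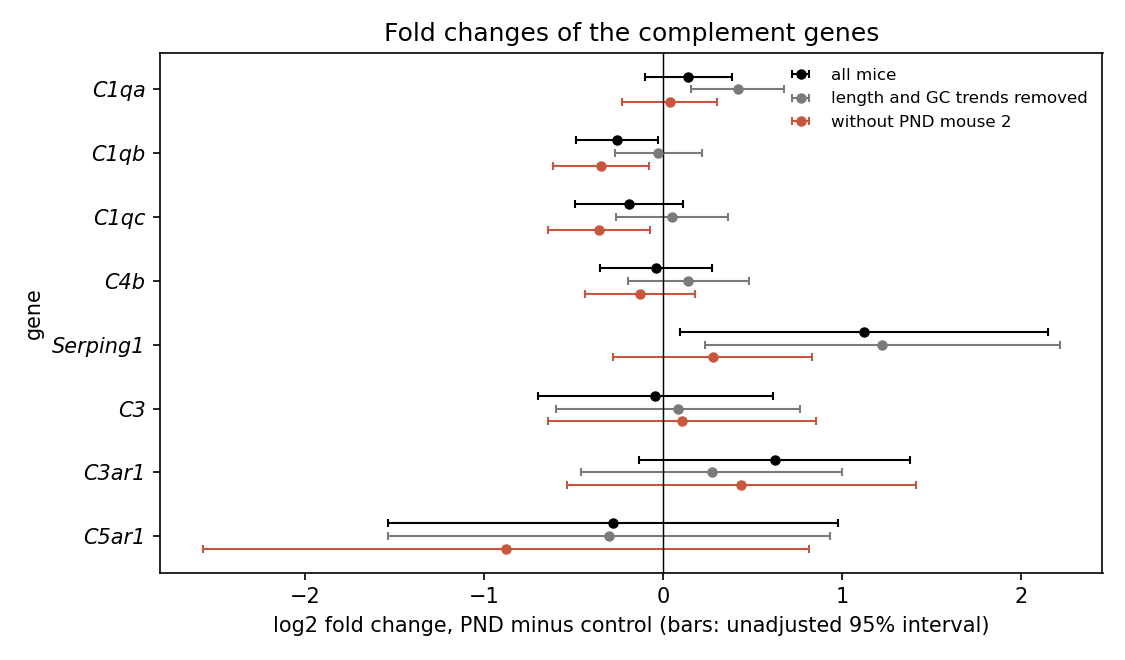
Log2 fold change of PND over control mice for each of the 8 genes, with unadjusted 95% intervals, for all mice (black), with the length and GC trends of each library removed (grey) and without PND mouse 2 (red). The estimate of Serping1 falls from 1.13 with all mice to 0.28 without PND mouse 2, and that of C1qa is 0.42 with the trends removed.

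Serping1 (chr2:84765387-84775444, minus strand) had the largest fold change of the 8 genes, and it rested on a single mouse. It had 109 and 146 counts in the controls and 138 and 380 counts in the PND mice, that is 6.33 and 7.99 CPM against 8.65 and 22.5 CPM. PND mouse 1 was near control mouse 2, and PND mouse 2 stood far above the other 3. The fold change was 2.18 (1.07 to 4.45, adjusted p = 0.10 by the edgeR test). Without PND mouse 2 the log2 fold change was 0.28 (adjusted p = 0.49), and without PND mouse 1 it was 1.63 (adjusted p = 0.0019), by the same edgeR test.

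Other transcripts were high in PND mouse 2 along with Serping1, among them Colec12, a scavenger receptor with a collectin domain, and Vtn, which was chosen for naming after its values were seen. Against the control mean, Serping1 was 1.21-fold in PND mouse 1 and 3.15-fold in PND mouse 2. Colec12 was 1.35-fold and 3.58-fold. Vtn, which encodes vitronectin, an inhibitor of the terminal complex and also a pericyte transcript, was 1.02-fold and 1.92-fold. Neither passed the test (adjusted p = 0.075 for Colec12 and 0.19 for Vtn by the edgeR test). Without PND mouse 2 their log2 fold changes were 0.43 and 0.03.

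The summed markers of fibroblasts and mural cells, of border macrophages and of endothelium were also highest in PND mouse 2. The 10 fibroblast and mural markers summed to 215 and 382 CPM in the controls and to 277 and 605 CPM in the PND mice. None was at 0 in any mouse. Of these sums, Igf2 alone gave 33.1 and 199 CPM in the controls and 66.8 and 245 CPM in the PND mice. It varied widely within both groups, and it did not pass. The 8 markers of border macrophages summed to 4.99 and 9.14 CPM against 7.46 and 21.98 CPM, again with none at 0. The 10 endothelial markers summed to 287 and 314 CPM against 327 and 409 CPM. Among the fibroblast markers, chosen after their values were seen, Slc6a13, a transporter of meningeal cells, had 96 and 105 counts in the controls and 110 and 589 in the PND mice, and Col1a2, a fibrillar collagen chain, had 172 and 228 counts against 197 and 665. In the same list Pdgfrb and Kcnj8, genes of mural cells, had fold changes of 0.898 and 0.918 and did not pass. Of the 10 fibroblast and mural markers 1 passed the test, the pericyte gene Rgs5, and of the 5 tested markers of border macrophages 0 passed. Of the 10 endothelial markers 3 passed as higher, Flt1, Itm2a and Ocln. Of all genes tested 13.1% passed as higher. These 4 genes, named because they passed, were higher in both PND mice than in both controls, which held for 33.2% of all genes tested. Rgs5 had 71.6 and 66.1 CPM in the controls and 105 and 123 CPM in the PND mice. Transcripts of Rgs5, Itm2a and Ocln have GC contents of 41.1%, 41.7% and 42.0%, and that of Flt1 has 50.5%. Their fold changes were not read with the length and GC trends removed. The part of fibroblasts, mural cells, border macrophages and endothelium in the level of Serping1 was not tested. The 10 neutrophil markers summed to 10.3 and 16.3 CPM in the controls and 2.07 and 10.7 CPM in the PND mice. All 4 that were tested had a negative log2 fold change (median -0.88), and 1 passed, Ltf, which encodes lactoferrin (fold change 0.322, adjusted p = 0.039, edgeR), beside 12.8% of all genes tested that passed as lower. The red blood cell markers summed to 5.25 to 11.2 CPM over the 4 mice.

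**Figure D4:**
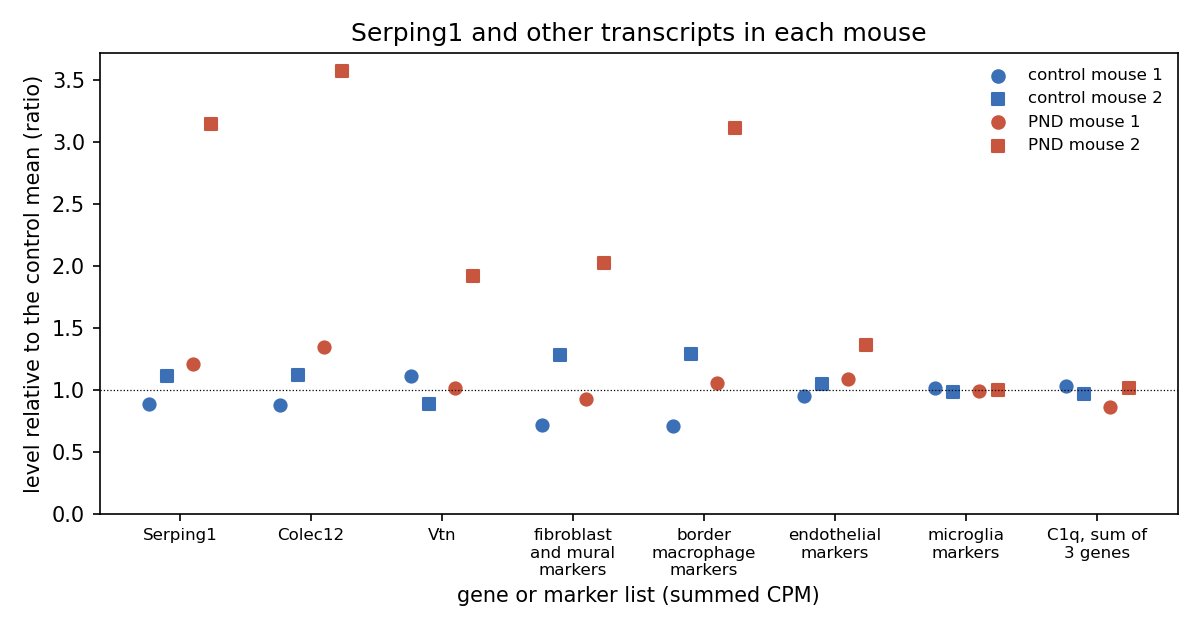
Levels in each mouse divided by the control mean (ratio, dotted line at 1) for Serping1, Colec12 and Vtn, for the summed CPM of 4 marker lists and for the sum of the C1q chains. PND mouse 2 lies at 3.15 for Serping1, 3.58 for Colec12, 2.03 for the fibroblast and mural markers and 3.11 for the border macrophage markers, but at 1.00 for the microglial markers and 1.01 for C1q.

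The rest of the pathway was read from lists of 50 further genes, of which 45 were in the table and 32 passed the filter on low counts. Of these 32 genes, 3 passed the edgeR test as higher in PND mice and 4 as lower, beside 13.1% and 12.8% of all genes tested. The median log2 fold change of the 32 genes was -0.05. With the trends with length and GC content removed and condition as the only term, 0 of the 7 kept an adjusted p under 0.05, and 113 genes in all were higher and 290 lower. No gene of the classical, lectin, alternative or terminal lists passed.

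Among the receptors, Itgam, the alpha chain of complement receptor 3 through which microglia bind the C3 fragment on tagged surfaces, had 2.79 and 2.13 CPM in the controls and 5.46 and 5.57 CPM in the PND mice. The PND mice lay close together and well above the control mice, and Itgam rose 2.24-fold (standard error 0.24 on the log2 scale, adjusted p = 0.016 by the edgeR test). Its log2 fold change was 1.12 with the trends with length and GC content removed (adjusted p = 0.066) and 0.98 without control mouse 2 (adjusted p = 0.083), by the same edgeR test. Of the windows of Itgam, 65.2% also occur in Gm49368, a gene whose exons overlap its own on the same strand, so that reads could have been split between them. Itgb2, the beta chain that pairs with it, named after its values were seen, had 7.14 and 7.66 CPM in the controls and 6.46 and 6.87 CPM in the PND mice (fold change 0.901, adjusted p = 0.56 by the same edgeR test). C1qbp, a mitochondrial protein named for its binding to C1q, fell from 59.3 and 65.9 CPM to 49.3 and 44.3 CPM (fold change 0.747, adjusted p = 0.021 by the same edgeR test). Its log2 fold change of -0.42 was -0.35 without control mouse 2, -0.34 without PND mouse 2 and -0.35 with the length and GC trends removed, with adjusted p of 0.084, 0.076 and 0.096 (edgeR).

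Among the regulators, Cd46 and Cr1l were higher in PND mice and 3 genes of the Sez6 family were lower. Cd46, a cofactor for the cleavage of C3b, rose from 9.81 and 7.33 CPM in the control mice to 13.9 and 16.6 CPM in the PND mice (fold change 1.78, adjusted p = 0.022 by the edgeR test). Cr1l, which encodes Crry, the main membrane inhibitor of C3 activation in rodents, rose from 21.2 and 17.7 CPM to 26.8 and 25.8 CPM (fold change 1.35, adjusted p = 0.043 by the same edgeR test). With the trends removed the log2 fold change of Cd46 was 0.22 and that of Cr1l turned to -0.27. Without control mouse 2 or PND mouse 2 neither gene passed, and without PND mouse 1 Cr1l did not pass. With no filter on low counts neither passed (adjusted p = 0.057 for Cd46 and 0.10 for Cr1l, edgeR), and with DESeq2 Cr1l did not (adjusted p = 0.089). Exons of Cd46 overlap those of A330023F24Rik on the opposite strand, which limits its count where counting used no strand.

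The transcripts of Sez6, Sez6l and Sez6l2, which encode neuronal transmembrane proteins with complement control domains, fell. Sez6l2 went from 599 and 598 CPM in the control mice to 418 and 373 CPM in the PND mice (fold change 0.661, adjusted p = 0.0047 by the edgeR test). Sez6 went from 350 and 353 CPM to 245 and 257 CPM, and Sez6l from 531 and 532 CPM to 418 and 431 CPM, with fold changes of 0.714 and 0.800. All 3 passed without any 1 of the 4 mice, but with the trends with length and GC content removed their log2 fold changes were -0.32, -0.20 and -0.14 for Sez6l2, Sez6 and Sez6l, and with condition as the only term none of the 3 passed (adjusted p = 0.090, 0.14 and 0.25 by the edgeR test). Of the windows of Sez6l2, 7.59% also occur in Gm21984, which overlaps it on the same strand. Clu, which encodes clusterin, the most abundant of the regulators and named after its values were seen, was at 936 and 1113 CPM in the controls and 976 and 920 CPM in the PND mice (fold change 0.925, adjusted p = 0.41 by the same edgeR test).

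**Figure D5:**
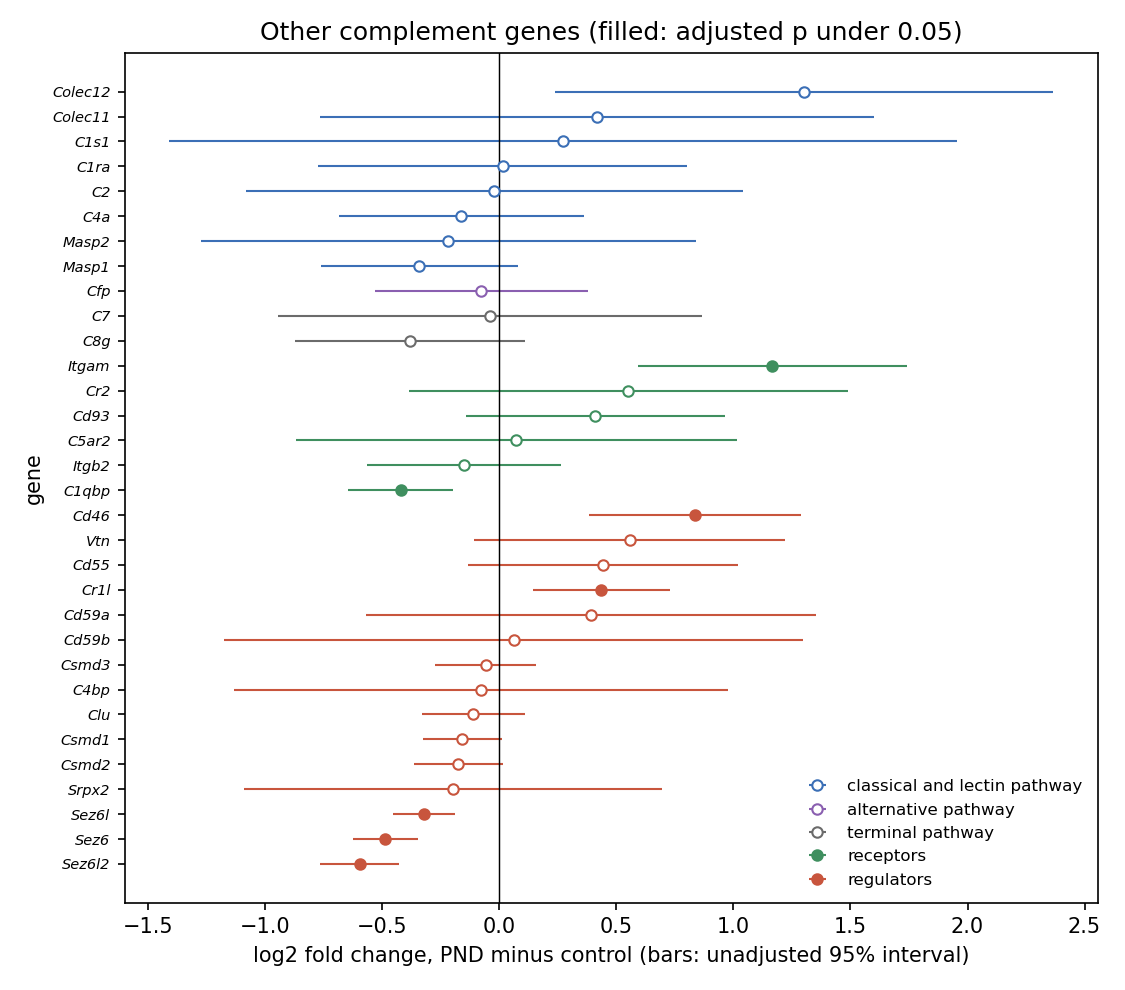
Log2 fold change of PND over control mice for the 32 tested genes of the other complement lists, colored by role, with unadjusted 95% intervals and filled points where the adjusted p is under 0.05. The filled points are Itgam, Cd46 and Cr1l to the right of 0 and C1qbp, Sez6l, Sez6 and Sez6l2 to the left.

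In the classical and lectin lists Colec12 was the most abundant transcript by mean CPM over the 4 mice. In both controls, with 5.63 and 7.22 CPM, it lay below Masp1. Masp1, a protease of the lectin pathway, had 7.31 and 7.60 CPM in the controls and 6.08 and 5.69 CPM in the PND mice (fold change 0.789, adjusted p = 0.20 by the edgeR test). Cfp, which encodes properdin, the stabilizer of the alternative C3 convertase, had 19.6 and 16.2 CPM against 19.8 and 14.1 CPM, with overlapping groups. Cfb, the protease of that convertase, had 4 to 11 counts per mouse and was not tested. In the terminal pathway C8g reached 3.97 to 5.64 CPM, and the others were low. C7 had 13 to 15 counts per mouse, Hc, the gene of C5, had 1 to 13 counts, and C6, C8b and C9 had at most 2. A gene with a count of 0 in a mouse could still be present at up to 0.164 to 0.188 CPM, the level of 3 counts, which covers counting error only.

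The genes most like these in pattern were sought among 10359 genes with a mean of at least 10 CPM, by the root mean square difference of centered log2 CPM over the 4 mice. For the mean of the C1q chains they were Wdr46, Mmachc and Rgs19, with differences of 0.0098, 0.016 and 0.017. For C4b they were Cldn5, the claudin of brain endothelium, with 0.035, followed by Cpne8 and Oxtr, and for C3 they were Fbxo32 (0.036), Slc26a10 and Lct. The nearest to Serping1 were Colec12 (0.086), Cp, which encodes ceruloplasmin (0.098), and Gm23935 (0.10). Within 0.05 of the pattern lay 69 genes for C1q, 10 for C4b, 2 for C3 and 0 for Serping1. A likeness over 4 mice, sought among this many genes, does not show a link between genes. The C1q mean is the profile of no single chain, as log2 fold changes were 0.14 for C1qa, -0.26 for C1qb and -0.19 for C1qc.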

How the data were processed

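Hippocampal poly(A) RNA of 2 control and 2 PND mice was analysed, grouped by the labelled treatment. The authors mapped filtered reads to mm10 with HISAT and deposited read counts per gene and mouse without normalization. The submitters' processing notes name HISAT2 2.1.0, HTSeq 0.6.0, Bowtie2 2.2.3 and TopHat2 without their roles, and the use of strand is not given in the sources used here. The authors' deposited table also holds their mean signal over libraries, fold change as a ratio, log2 fold change and p-values, none of which was used.

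Counts were filtered (edgeR 4.0.16 filterByExpr, minimum count 10), scaled by TMM and tested in R 4.3.3 by the quasi-likelihood test with condition as the only term, with adjustment over all genes tested. Log2 CPM used a prior count of 2. Alternatives used DESeq2 1.42.0, limma 3.58.1 (voom) and smooth trends with transcript length and GC content as offsets (mgcv 1.9.3, basis size 8). Transcript lengths, GC contents, overlaps and windows of 75 nt are from GENCODE M21. In simulated data on 17017 genes, the edgeR test recovered 91 of 100 genes changed 2-fold or to the inverse, 64 of 100 changed by 1.5 or 0.67, and called 10 unchanged genes. These counts are pooled over genes and do not give the recovery at the levels or the spread of the 8 complement genes.

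The members and lists were chosen with earlier results of these data known. Named genes are the members, genes of the other lists that passed the test, and otherwise the 3 per list with the highest mean CPM, and exceptions are stated. C1rb, Mbl1, Mbl2, Cfd and C8a were not analysed here, and 1 further gene of the pathway is not reported here.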

Additional observations from a re-analysis of the deposited data

How the results depend on the processing

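With 2 mice per group, several calls depended on single libraries. The number of the 8 complement genes that passed was 0 in 10 of the 13 alternatives. It was 1 without PND replicate 1 (a range of 0 to 1 over the mice left out), where Serping1 passed, and 1 with the replicate number as a block, where Serping1 passed (adjusted p = 0.022, edgeR). It was 2 with the block and the length and GC offsets, where C1qa (0.41) and Serping1 (1.15) passed. The labels do not say whether same-numbered mice shared a batch or litter, and they were treated as unpaired. The deviations of same-numbered mice from their group means correlated at 0.22 over 17144 genes, and both pairs give the same value. The calls of Serping1 and C1qa under the block depend on a pairing that is not known.

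With no filter on low counts 1315 genes were higher and 1350 lower, against 2250 and 2199, and 1 other complement gene was higher. With the length and GC offsets 113 and 290 genes passed, and 0 other complement genes in either direction. With the block added to the offsets 713 genes were higher and 1583 lower, and 2 other complement genes were higher and 4 lower. Of those named, Itgam (adjusted p = 0.026), C1qbp (0.036), Sez6 (0.041) and Sez6l2 (0.0087) passed there by edgeR, while Cd46, Cr1l and Sez6l did not. C1qbp did not pass with no filter (0.059). Leaving out each mouse gave 1201 to 2025 higher and 1207 to 2080 lower genes, the lowest without control replicate 2, and 1347 lower without PND replicate 2. For the other complement genes it gave 1 to 4 higher, against 3, and 3 to 4 lower, with 1 higher without control replicate 2 or PND replicate 2. The median of the 8 genes ran from -0.07 to 0.17 and the C1q to microglia difference from -0.21 to 0.02.

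Directions turned for C3 (0.0038 with library totals, 0.085 with the offsets, 0.091 with the block added), C4b (0.0080, 0.14 and 0.16 in the same order), C1qc (0.051 and 0.046 with the offsets without and with the block) and Cr1l (-0.27 and -0.26). Without single mice, C3 ran from -0.30 to 0.24, C4b from -0.22 to 0.15 and C5ar1 from -0.88 to 0.20. The causes were not tested.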
